A study of Mus musculus with 47 samples.

Results

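Mouse JB6 cells that carry a short hairpin RNA (shRNA) against Anxa2 were compared with JB6 cells that carry the empty vector, 6 h after X-rays. The 12 arrays were chosen by their labels from the 47 arrays of the series. They are 3 arrays of shRNA cells after 10 cGy, 3 of shRNA cells after 100 cGy, 3 of vector cells after 10 cGy and 3 of vector cells after 100 cGy. JB6 cells derive from mouse epidermis and are used as a model of tumour promotion. Both lines were infected with retrovirus from Phoenix packaging cells and selected with puromycin, so vector cells passed through the same steps without the hairpin. The labels name a single hairpin line and a single vector line, and a difference between these lines from any other source cannot be told apart from the loss of Anxa2. All 12 arrays are of irradiated cells, and no untreated arrays enter the comparison. Across 8675 genes, which are not independent replicates, the line difference at 6 h correlated with that in untreated cells at r = 0.92 (2 h) and 0.85 (24 h). Replicates are numbered in the labels but not said to be separate cultures, so p-values measure the spread between these samples, which may be technical. Precision is limited throughout by how few arrays each group has.

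Levels below are log2 signals from robust multi-array average (RMA) summaries, given as the lowest, median and highest of the 6 arrays of a line. Differences are shRNA minus vector on the log2 scale, and their standard errors come from a limma model with dose as a covariate. A gene is called at an adjusted p (Benjamini-Hochberg over 8675 tested genes) under 0.05, and "rose" and "fell" are used of called genes only. Annexin A2 binds membrane phospholipids in the presence of calcium and forms a surface complex with S100A10. That complex brings plasminogen together with its activators, and the plasmin formed can cleave matrix proteins and activate matrix metalloproteinases. Annexin A2 also links membranes to actin filaments and takes part in endosome traffic.

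Anxa2 itself (GRCm38.p6, chromosome 9, 69453683 to 69491792) fell in shRNA cells after either dose. Its signal ran from 11.05 through 11.09 to 11.21 in shRNA cells, against 12.46, 12.57 and 12.62 in vector cells, and the lines did not overlap. Group means were 11.10 ± 0.02 after 10 cGy and 11.11 ± 0.09 after 100 cGy in shRNA cells, against 12.51 ± 0.06 and 12.60 ± 0.02 in vector cells (SD, n = 3 each). The difference was -1.45 ± 0.06 (adjusted p = 8.24e-12), which corresponds to 36.5% of the vector signal (95% interval 33.7% to 39.7%). The labels state a loss of more than 95% of the RNA, larger than the loss of signal measured here. Of the other probe sets of Anxa2, one had a smaller difference (-0.73, with means of 6.10 in shRNA cells and 6.83 in vector cells) and one was dim in either line, with a difference of 0.009.

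The lines differed widely. Of the tested genes 2227 were higher in shRNA cells (25.7%) and 2151 were lower (24.8%), together 50.5%. These shares stand as the background for the list counts below. A called change of at least 2-fold upward was found for 171 genes (1.97%) and downward for 202 (2.33%). For 1321 called genes the 6 shRNA arrays all lay above the 6 vector arrays (15.2%), and for 1366 they all lay below (15.7%). The median difference over all tested genes was 0.04, and the median absolute difference was 0.21. The first principal component of the 12 arrays held 74.7% of the variance with the shRNA arrays at -26.19 to -21.89 and the vector arrays at 22.49 to 24.54. A further 8.8% lay on the second, where replicate 1 of shRNA cells after 10 cGy stood apart at 22.15, against -10.06 to 4.96 for the other 11 arrays. Its Gapdh probes at the 3′ end exceeded those at the 5′ end by 1.06, a measure of RNA quality that ran from -0.06 to 0.16 on the others. Without it, the counts of gene lists given below moved by at most 2 genes.

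Dose made no called difference to the comparison between lines. After 10 cGy 3220 genes were called (37.1%) and after 100 cGy 3301 (38.1%), from arrays that the other dose does not use. Across the 8675 genes, which are not independent replicates, the 2 line differences correlated at r = 0.93. The interaction of line and dose was called for 0 genes (0%) by limma, with 583 at an unadjusted p under 0.05 and 0 calls in every alternative fit run. The gene with the smallest interaction p was Il11, with an interaction of -0.59 (unadjusted p = 0.000562, adjusted p = 0.74). The plot of the line difference at one dose against the other shows the genes named below along the diagonal. They were picked by size over both doses on these same arrays, so their place there is no test of dose.

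**Figure D1:**
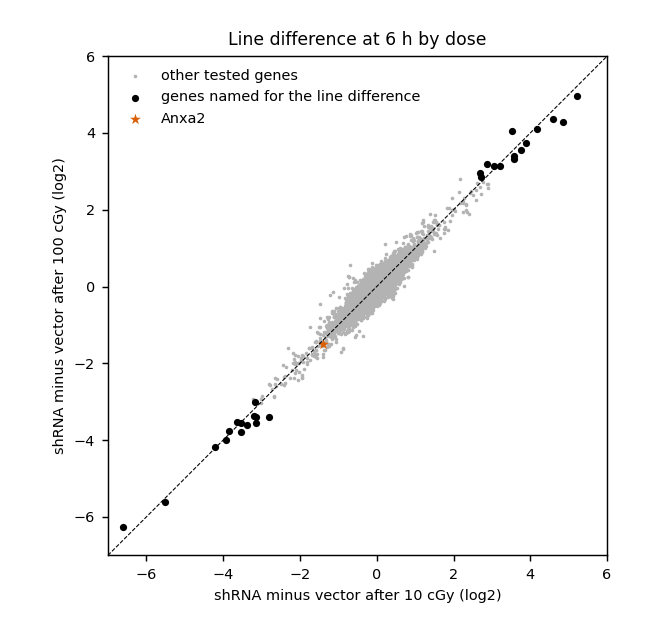
Each point is a tested gene, with its shRNA minus vector difference (log2) 6 h after 10 cGy on the horizontal axis and after 100 cGy on the vertical axis; black points are the 28 genes named for the line difference, the star is Anxa2 and the dashed line marks equal differences. The named genes lie close to that line at both ends, from Cdh11 at -6.62 after 10 cGy and -6.27 after 100 cGy to Rhox5 at 5.22 and 4.95. They were picked over both doses on these arrays, so the same sign at both doses was set by the choice.

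Cdh11 and Smoc2 had the largest losses in shRNA cells. Cdh11, which encodes a cadherin of mesenchymal cells, had signals of 3.31, 3.43 and 3.81 in shRNA cells, against 9.76, 9.92 and 10.17 in vector cells (-6.44 ± 0.10, adjusted p = 1.35e-16). Smoc2, a secreted calcium-binding matrix protein, had 3.73, 3.93 and 4.05 in shRNA cells, against 9.26, 9.52 and 9.58 in vector cells (-5.56 ± 0.07, adjusted p = 4.21e-17). Both genes were near the bottom of the scale in every shRNA array and well expressed in every vector array. Pawr, which encodes the pro-apoptotic protein Par-4, had 4.30, 4.52 and 4.95 in shRNA cells, against 8.62, 8.71 and 9.02 in vector cells (-4.20 ± 0.10, adjusted p = 2.35e-14). Glipr1 kept a clear signal in shRNA cells (6.69, 6.94 and 7.11) below that in vector cells (10.40, 10.61 and 10.80). Gap43, which encodes a membrane protein of growth cones, fell by 3.09 ± 0.16, and the X-linked gene Armcx4 fell by 3.80 ± 0.10. In every one of these genes the 6 shRNA arrays lay below the 6 vector arrays, which was a condition of their being named.

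For 15 of the 28 genes named by size in either direction, the mean of the lower line is under 4.35, the signal below which the dimmest genes were left out, so their difference depends on where the scale ends. These 28 genes were picked from called genes without overlap between the lines, so their lack of overlap was set by the choice. List members named below for a small p were picked on these same arrays, which favours lack of overlap. Over all tested genes 31% did not overlap. Of these 28 genes, 11 have 19 further probe sets on the array. The differences of all 19 have the sign of the one used, but some are close to 0, as for a further probe set of Cryab (0.046), F11r (0.10), Afp (0.10) and Ahr (-0.16).

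**Figure D2:**
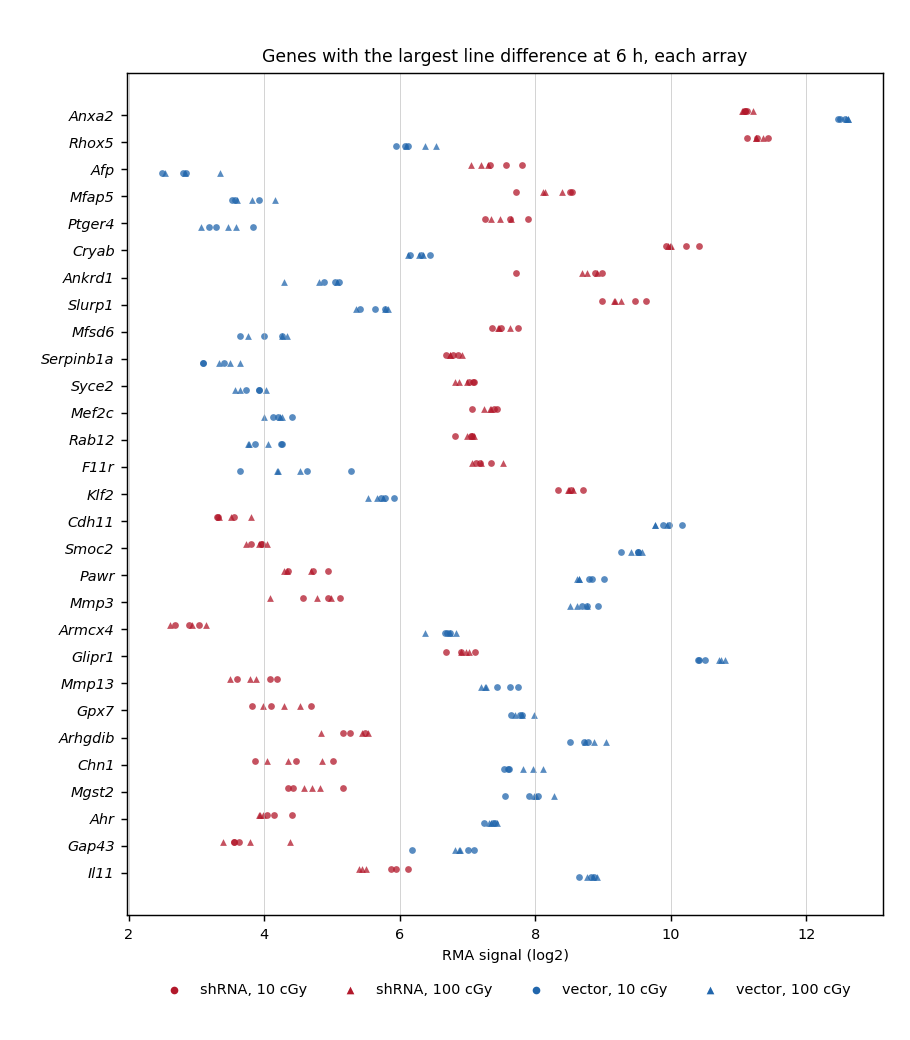
RMA signal (log2, horizontal axis) of Anxa2, of the 14 genes with the largest called rise and of the 14 with the largest called fall; each row is a gene and each point an array, shRNA in red and vector in blue, circles 10 cGy and triangles 100 cGy. Genes other than Anxa2 were picked for arrays of the lines that do not overlap, and those of Anxa2 do not overlap either. Circles and triangles of a line lie together.

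Matrix metalloproteinases (MMPs) cleave extracellular matrix, and 3 of them that lie close together on chromosome 9 fell. Mmp3, stromelysin 1, had 4.09, 4.86 and 5.12 in shRNA cells, against 8.51, 8.72 and 8.92 in vector cells (-3.96 ± 0.13, adjusted p = 1.22e-12). Mmp13, collagenase 3, had 3.50, 3.84 and 4.19 in shRNA cells, against 7.20, 7.35 and 7.75 in vector cells (-3.58 ± 0.10, adjusted p = 2.03e-13). Mmp10, stromelysin 2, had 5.48, 5.63 and 6.03 in shRNA cells, against 6.31, 6.46 and 6.73 in vector cells, a smaller loss (-0.80 ± 0.09, adjusted p = 1.23e-06). The lines did not overlap for any of the 3 genes, which for Mmp3 and Mmp13 was a condition of naming. Mmp9, gelatinase B, which lies on chromosome 2, fell by 2.67 ± 0.10. Mmp7, Mmp11, Mmp14, Mmp23 and Mmp24 were not called, with differences of 0.11, 0.10, -0.07, 0.22 and 0.005. Over the whole list of MMPs, ADAM proteases and their inhibitors (TIMPs), 10 of 26 tested members rose and 10 fell, with a median difference of 0.05 beside 0.04 over all genes. Mmp16, a membrane-bound MMP, rose by 1.49 ± 0.07, the aggrecanase gene Adamts5 by 1.45 ± 0.08, and Adam19 fell by 1.36 ± 0.09. Without the shRNA array that stood apart 10 rose and 11 fell.

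The sequences just upstream of these 3 MMP genes and of the cytokine gene Il11, which also fell, are shown because each holds a match to the AP-1 site, the binding letters of Fos and Jun dimers. They are the 130 bases before each gene start in RefSeq (GRCm38.p6), 5′ to 3′ on the strand of the gene, with the match in capitals, at chr9:7272384-7272513 (Mmp13, plus strand), chr9:7445692-7445821 (Mmp3, plus), chr9:7502212-7502341 (Mmp10, plus) and chr7:4778142-4778271 (Il11, minus).
Mmp13: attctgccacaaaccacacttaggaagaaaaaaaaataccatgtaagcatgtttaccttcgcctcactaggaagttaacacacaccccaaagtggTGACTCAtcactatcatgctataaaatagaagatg
Mmp3: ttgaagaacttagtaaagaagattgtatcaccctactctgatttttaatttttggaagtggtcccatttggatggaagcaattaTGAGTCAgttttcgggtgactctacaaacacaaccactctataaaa
Mmp10: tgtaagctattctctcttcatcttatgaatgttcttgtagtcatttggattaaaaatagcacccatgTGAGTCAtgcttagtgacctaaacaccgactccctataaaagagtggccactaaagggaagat
Il11: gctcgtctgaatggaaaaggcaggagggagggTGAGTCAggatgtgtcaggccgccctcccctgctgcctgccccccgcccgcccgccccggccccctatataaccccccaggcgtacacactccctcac
The match begins 35 bases before the start of Mmp13, 46 before that of Mmp3, 63 before that of Mmp10 and 98 before that of Il11. The letters searched were TGANTCA on both strands within 250 bases upstream, and 6.75% of 32851 promoters in the table hold them. Of the 14 named genes that rose, 10 have a promoter in the table and 2 of these hold the letters. Of the 14 that fell, 9 have one and 4 hold them. Among all tested genes with a promoter the share is 5.91%. A match describes the letters in this window and is not a measured site. Of 6 Fos and Jun genes tested at 6 h, Jund rose by 0.73 ± 0.07 (adjusted p = 6.93e-07, no overlap between lines), and Fos, Jun, Fosl1, Fosl2 and Junb did not pass the test, with differences of -0.08, -0.05, 0.10, 0.11 and 0.15.

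Secreted signals changed in both directions. Il11, a cytokine of the interleukin-6 family, had 5.40, 5.69 and 6.13 in shRNA cells, against 8.64, 8.83 and 8.91 in vector cells (-3.09 ± 0.10, adjusted p = 1.15e-12). Cxcl12, a chemokine that attracts cells with the receptor CXCR4, had 6.56, 6.70 and 6.77 in shRNA cells, against 9.51, 9.68 and 9.72 in vector cells (-2.97 ± 0.06, adjusted p = 1.10e-14). Il6 went the other way, with 4.25, 4.94 and 5.58 in shRNA cells, against 2.85, 3.25 and 3.53 in vector cells (1.67 ± 0.17, adjusted p = 7.64e-07). The lines did not overlap for these 3 genes (a condition of naming for Il11), and Il6 was barely above the lowest signals in vector cells. Of 29 tested NF-kB targets, chemokines and cytokines 5 rose and 13 fell, with a median of -0.10, and without the shRNA array that stood apart 6 rose and 13 fell. Among those that fell were Birc3, an inhibitor of apoptosis (-1.23 ± 0.08), the chemokine gene Cxcl5 (-0.93 ± 0.08) and Nfkbia, which encodes the inhibitor that holds NF-kB in the cytoplasm (-0.83 ± 0.07). The chemokine gene Ccl9 rose by 1.61 ± 0.11. Of receptors for growth factors other than EGF, 4 of 17 rose and 4 fell, near the 25.7% and 24.8% over all tested genes. Pdgfra, the alpha receptor of platelet-derived growth factor, had 6.77, 7.08 and 7.30 in shRNA cells, against 9.43, 9.60 and 9.70 in vector cells (-2.52 ± 0.10). Among 7 tested genes of EGF receptors and ligands, the ligand genes Btc and Ereg fell by 1.95 ± 0.08 and 0.35 ± 0.07, and the ligand gene Hbegf rose by 0.42 ± 0.07.

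The largest gains included genes that are usually restricted to other tissues or stages. Rhox5, an X-linked homeobox gene of testis and placenta, had 11.13, 11.26 and 11.43 in shRNA cells, against 5.95, 6.12 and 6.53 in vector cells (5.09 ± 0.09, adjusted p = 5.60e-16). Afp, which encodes the fetal liver protein alpha-fetoprotein, had 7.06, 7.32 and 7.81 in shRNA cells, against 2.49, 2.82 and 3.35 in vector cells (4.57 ± 0.14, adjusted p = 7.26e-13). Mfap5, which encodes a protein of matrix microfibrils, had 7.72, 8.27 and 8.54 in shRNA cells, against 3.52, 3.71 and 4.16 in vector cells (4.47 ± 0.14). Each of these genes was clearly above the vector level in all 6 shRNA arrays, and lack of overlap was a condition of naming. Ptger4, a receptor of prostaglandin E2, rose by 4.14 ± 0.13, and Cryab, a small heat shock protein of lens and muscle, by 3.81 ± 0.08. Slurp1, a secreted protein of keratinocytes, rose by 3.65 ± 0.11, and Serpinb1a, an inhibitor of neutrophil proteases, by 3.44 ± 0.08. Syce2, of the synaptonemal complex of meiosis, rose by 3.17 ± 0.08, and F11r, which encodes the junctional adhesion molecule JAM-A, by 2.83 ± 0.19. Mfsd6 and the GTPase gene Rab12 rose by 3.48 ± 0.12 and 3.02 ± 0.09.

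Ankrd1, Klf2 and Mef2c encode nuclear regulators and all rose. Ankrd1, a cardiac ankyrin repeat protein and a common readout of the co-activator YAP, had 7.72, 8.82 and 8.98 in shRNA cells, against 4.30, 4.96 and 5.10 in vector cells (3.79 ± 0.19, adjusted p = 2.31e-10). Klf2, a zinc finger factor known from endothelial and T cells, had 8.33, 8.51 and 8.71 in shRNA cells, against 5.53, 5.74 and 5.91 in vector cells (2.79 ± 0.07, adjusted p = 1.05e-13). Mef2c, a muscle and neural transcription factor, averaged 7.30 ± 0.13 in shRNA cells and 4.21 ± 0.14 in vector cells (SD, n = 6 each), without overlap (3.10 ± 0.08, adjusted p = 9.42e-14). The upstream bases of Klf2 and Ankrd1 are shown because each holds a match. That of Klf2 holds CTA and TAG set 4 bases apart, the letters searched for a MEF2 site. That of Ankrd1 holds CATTCC on the other strand, the site of TEAD factors, through which YAP acts. Shown are the 130 bases before the gene start (RefSeq, GRCm38.p6), 5′ to 3′ on the strand of the gene, with the match in capitals. They lie at chr8:72318932-72319061 (Klf2, plus) and chr19:36119845-36119974 (Ankrd1, minus).
Klf2: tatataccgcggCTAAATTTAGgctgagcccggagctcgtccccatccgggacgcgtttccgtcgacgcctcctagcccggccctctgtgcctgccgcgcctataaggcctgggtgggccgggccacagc
Ankrd1: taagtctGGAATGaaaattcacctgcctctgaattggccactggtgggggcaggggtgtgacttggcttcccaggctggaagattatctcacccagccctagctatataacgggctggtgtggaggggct
The match begins 118 bases before the start of Klf2 and 123 before that of Ankrd1. Within 250 bases upstream and on both strands, 3.2% of all promoters in the table hold the MEF2 letters and 12.6% the TEAD letters. The 4 bases between CTA and TAG were left free in the search, so the MEF2 share counts any bases there. Of the named genes with a promoter in the table, the MEF2 letters are in 1 of 10 that rose and 0 of 9 that fell, and the TEAD letters in 3 of 10 and 2 of 9.

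The list of targets of YAP and of serum response factor (SRF), which follow cell tension and actin assembly, had more members higher than lower. It also holds regulators, of which Srf, Tead1 and Tead4 rose, Wwtr1 and Tead2 fell and Yap1 was not called. Of 19 tested members 10 rose and 4 fell, with a median of 0.23, and without the shRNA array that stood apart 11 rose and 4 fell. Ccn2, which encodes connective tissue growth factor, had 8.95, 9.01 and 9.36 in shRNA cells, against 6.56, 7.01 and 7.23 in vector cells (2.14 ± 0.09, adjusted p = 3.05e-11). Ccn1 rose by 0.57 ± 0.07 and Srf by 0.65 ± 0.09, while Wwtr1, which encodes the YAP relative TAZ, fell by 0.74. Immediate early genes divided, with 12 of 32 higher and 11 lower, or 12 and 9 without that array. Klf4 rose by 1.62 ± 0.06, and Dusp1, a phosphatase of stress kinases, by 1.61 ± 0.08. Sgk1, a kinase induced by serum and glucocorticoids, fell by 1.66 ± 0.07, and Dusp6, a phosphatase of ERK, by 1.08 ± 0.10. Of 37 actin cytoskeleton genes 12 rose and 10 fell, shares near those over all tested genes. The smooth muscle actin gene Actg2 rose by 1.72 ± 0.10, and Csrp2, a LIM protein of smooth muscle, fell by 1.40 ± 0.07.

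Other annexins and S100 genes were higher in shRNA cells where they were called on all 12 arrays. Of 8 other annexins tested 6 rose and 0 fell, with a median of 0.40 beside 0.04 over all genes. Anxa3 had 11.29, 11.43 and 11.48 in shRNA cells, against 10.62, 10.67 and 10.69 in vector cells (0.75 ± 0.05, adjusted p = 1.86e-08), and the lines did not overlap. Anxa8 rose by 0.77 ± 0.06 and Anxa5, a protein used to stain dying cells, by 0.49 ± 0.06. Of 9 S100 genes 5 rose and 0 fell, and without the shRNA array that stood apart 5 rose and 1 fell. S100a10, the partner of annexin A2, had 11.55, 11.78 and 12.15 in shRNA cells, against 11.23, 11.46 and 11.80 in vector cells, with overlap between the lines (0.35 ± 0.10, adjusted p = 0.0102). In the plasminogen system 2 of 6 tested genes rose and 1 fell, against 25.7% and 24.8% of all tested genes. Plat, the tissue plasminogen activator, was the one that fell, with 7.24, 7.45 and 7.61 in shRNA cells, against 8.06, 8.17 and 8.28 in vector cells (-0.73 ± 0.07, adjusted p = 4.86e-07).

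Collagens rose more often than they fell, and other matrix genes divided. Of 17 collagen genes 10 rose and 1 fell, with a median of 0.36. Col4a5, a chain of basement membrane collagen, had 6.82, 7.02 and 7.20 in shRNA cells, against 4.16, 4.58 and 4.86 in vector cells (2.48 ± 0.11, adjusted p = 5.53e-11). The fibrillar chain gene Col1a2 rose by 0.81 ± 0.07 and Col1a1 by 0.57 ± 0.10. Of 29 matricellular and other matrix genes 11 rose and 12 fell. Sparcl1, a relative of the matrix protein SPARC, fell by 2.92 ± 0.10 and the proteoglycan gene Vcan by 1.47 ± 0.08, while Tnxb, a tenascin, rose by 1.28 ± 0.09. Cadherins and catenins counted 4 of 12 higher and 4 lower. Ctnnb1, beta-catenin, was among the lower ones with 11.09, 11.46 and 11.52 in shRNA cells, against 12.01, 12.17 and 12.27 in vector cells (-0.79 ± 0.08, adjusted p = 5.67e-07). Of 12 integrins 3 rose and 4 fell, close to the shares over all genes, Itgav by 0.51 ± 0.06 and Itgb5 by 0.53 ± 0.07 upward. TGF-beta and BMP signalling counted 7 of 35 higher and 15 lower (8 and 14 without that array). Grem1, an antagonist of BMPs, had 9.04, 9.29 and 9.53 in shRNA cells, against 11.21, 11.41 and 11.51 in vector cells (-2.12 ± 0.08, adjusted p = 7.04e-12). Id4, a BMP target, fell by 2.32 ± 0.12 and the ligand gene Tgfb3 by 0.95 ± 0.06, and Bambi, a decoy receptor, rose by 1.03 ± 0.08.

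In shRNA cells p53 targets were more often higher than lower, and DNA repair genes were more often lower. Without untreated arrays at this time, their response to X-rays was not measured. Of 30 p53 targets 14 rose, 3 fell and 13 were not called, with a median of 0.19. Over all tested genes 25.7% rose and 24.8% fell. Among the targets not called were Ccng1 (-0.03), Zmat3 (-0.08), Sesn1 (0.008) and Fas (0.04). Cdkn1a, the p53 target that arrests the cell cycle, was high in both lines, with 10.50, 10.69 and 10.75 in shRNA cells, against 10.38, 10.60 and 10.78 in vector cells (0.06 ± 0.06, adjusted p = 0.412). Mdm2, which degrades p53, had 9.59, 9.90 and 10.15 in shRNA cells, against 9.26, 9.50 and 9.75 in vector cells (0.39 ± 0.06, adjusted p = 2.73e-05). The lines overlapped for both genes. The phospholipid transfer gene Pltp rose by 1.39 ± 0.11 and Gadd45a, a growth arrest gene, by 0.97 ± 0.10, and Ddb2, a sensor of ultraviolet damage, fell by 0.49 ± 0.11. Of 35 DNA repair and damage signalling genes 2 rose and 12 fell, with a median of -0.14, and without the shRNA array that stood apart 1 rose and 13 fell. H2ax, the histone variant marked at double-strand breaks, had 7.71, 7.83 and 7.99 in shRNA cells, against 8.51, 8.75 and 8.92 in vector cells (-0.91 ± 0.07, adjusted p = 5.41e-08). Both subunits of the Ku end-joining complex fell, Xrcc6 by 0.56 ± 0.06 and Xrcc5 by 0.54 ± 0.08. The base excision repair genes Lig3, Parp2 and Apex1 fell by 0.47 ± 0.07, 0.53 ± 0.08 and 0.52 ± 0.08. None of these 6 genes overlapped between lines. They are the members with the smallest p in the list, so this was all but set by the choice. In the whole list 8 of 35 genes did not overlap, against 31% of all tested genes. Prkdc, the kinase that Ku recruits, rose by 0.54 ± 0.11.

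Genes of the cell cycle moved by small amounts. Over all tested genes 25.7% rose and 24.8% fell. Of 38 mitotic genes 14 rose and 4 fell, with Prc1 of the spindle midzone up by 0.52 ± 0.06, the proliferation marker Mki67 up by 0.60 ± 0.09 and the centromere gene Cenph down by 0.84 ± 0.07. DNA replication genes counted 4 of 38 higher and 12 lower (6 and 12 without that array), with the clamp loader gene Rfc5 down by 0.53 ± 0.06 and the thymidine kinase gene Tk1 by 0.45 ± 0.07. Of 28 apoptosis regulators 10 rose and 8 fell (9 and 8 without it). Beside Pawr and Birc3, described above, the pro-apoptotic gene Bid rose by 1.09 ± 0.09 and the anti-apoptotic gene Mcl1 by 0.60 ± 0.07.

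Detoxification genes fell more often than they rose in shRNA cells. Ahr, the aryl hydrocarbon receptor that switches on enzymes against foreign compounds, had 3.93, 4.01 and 4.41 in shRNA cells, against 7.25, 7.36 and 7.43 in vector cells (-3.28 ± 0.08, adjusted p = 2.72e-14). Of 4 tested genes of its pathway 2 fell, the other being Nqo1, a quinone reductase that NRF2 also controls, with 6.95, 7.18 and 7.37 in shRNA cells, against 8.83, 8.97 and 9.13 in vector cells (-1.83 ± 0.08). Neither gene overlapped between lines, which for Ahr was a condition of naming. NRF2 and glutathione genes counted 4 of 34 higher and 15 lower, with a median of -0.08, and without the shRNA array that stood apart 6 and 14. The glutathione peroxidase gene Gpx7 and the microsomal transferase gene Mgst2 fell by 3.55 ± 0.12 and 3.28 ± 0.13. Nfe2l2, which encodes NRF2 itself, had 8.63, 8.92 and 8.97 in shRNA cells, against 9.52, 9.62 and 9.65 in vector cells (-0.73 ± 0.07). In the prostaglandin list 4 of 10 rose and 3 fell: beside Ptger4, the transporter gene Slco2a1 rose by 1.63 ± 0.08, and the prostaglandin E synthase gene Ptges fell by 1.57 ± 0.12.

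Further lists are given by their counts, against 25.7% higher and 24.8% lower over all tested genes. Circadian clock and output genes counted 11 of 19 higher and 2 lower, with a median of 0.30 (10 and 2 without the shRNA array that stood apart), among them the output factor genes Dbp (1.07) and Tef (0.80 ± 0.08) and the repressor gene Cry2 (0.84 ± 0.08). ATF4 and unfolded protein genes counted 14 of 34 higher and 6 lower, with Herpud1 up by 0.78 ± 0.07 and Ppp1r15a by 0.75 ± 0.06. Heat shock proteins counted 7 of 20 higher and 1 lower, led by Cryab and by Dnajb4 at 0.99 ± 0.08. Interferon response genes divided, 6 of 20 higher and 7 lower, with the class I gene H2-D1 up by 1.32 ± 0.08 and the GTPase gene Irgm1 down by 1.27 ± 0.08. Cholesterol synthesis counted 7 of 20 higher and 6 lower, glycolysis and hypoxia genes 7 of 26 and 7, Wnt signalling 7 of 21 and 4, and semaphorins, ephrins and their receptors 6 of 24 and 6. Junction and desmosome genes counted 3 of 7 and 2, imprinted genes 4 of 12 and 2, and Hox and Rhox genes 4 of 15 and 5. The lists of glycolysis and hypoxia genes and of semaphorins and ephrins lie near the shares over all tested genes. In the plot of list counts, 6 lists lie beyond the share of all genes on the higher side by the most. They are annexins, S100 genes, collagens, clock genes, p53 targets and the YAP and SRF list. Lists and members were chosen with earlier results of these data known, so this order is no test. The annexin and S100 lists are also short, with 8 and 9 tested members.

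**Figure D3:**
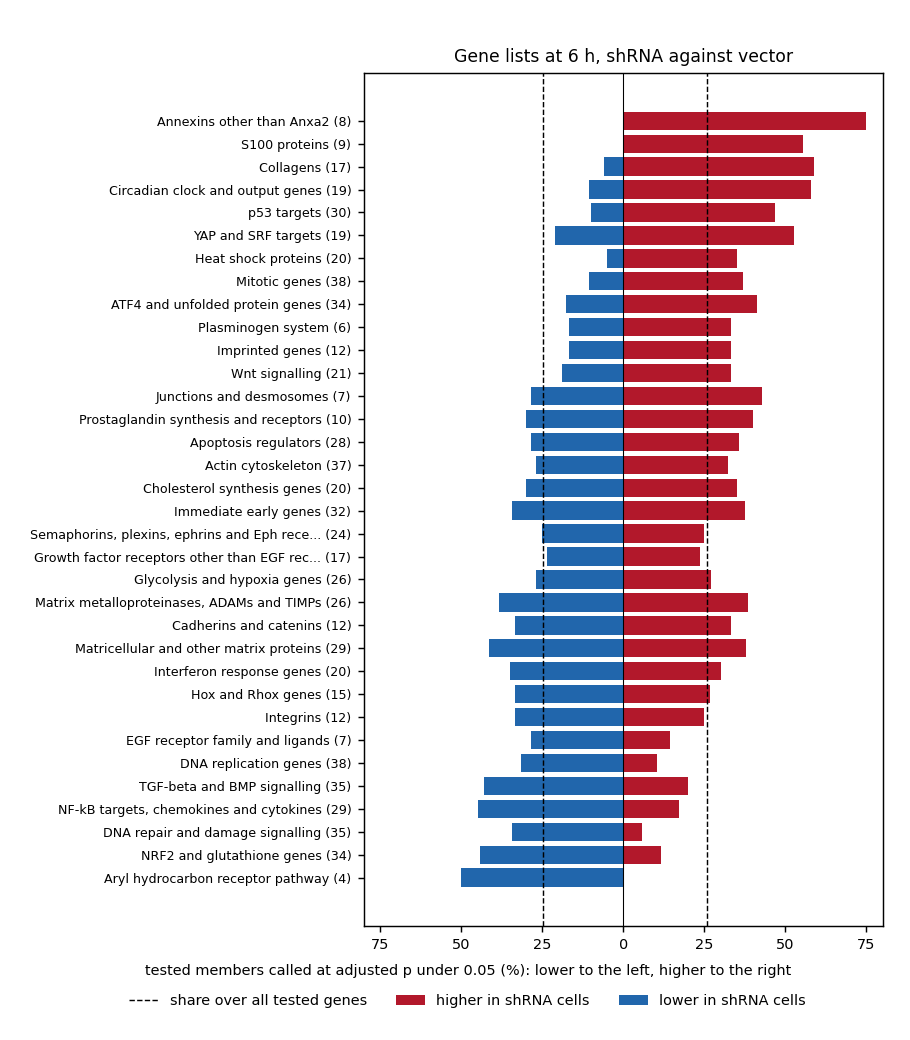
Share of tested members (horizontal axis, %) called higher (red, right) or lower (blue, left) in shRNA cells at 6 h in each pathway list, with the number of tested members in parentheses; dashed lines mark 25.7% and 24.8%, the shares over all tested genes. Other annexins lie farthest to the right with 6 of 8 higher and 0 lower, and DNA repair, NRF2 and glutathione genes lie toward the left. The lists were chosen with earlier results of these data known, so their order is no test.

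The epidermal label was set against marker genes. Of 26 keratinocyte markers on the array 15 had a mean signal under 4.35, among them Epcam, Cdh1, Trp63, Krt15 and Ivl, and of 11 tested 3 rose and 1 fell, against 25.7% and 24.8% of all tested genes. Krt5, the basal keratin, lay at 4.43, 4.62 and 4.73 in shRNA cells, against 4.49, 4.63 and 4.91 in vector cells, and did not pass the test. Its partner Krt14 lay at 5.92, 6.06 and 6.23 in shRNA cells, against 3.63, 3.84 and 3.99 in vector cells (2.23 ± 0.07, adjusted p = 7.26e-13). The summed linear signal of these 26 markers was 1157 to 1436 in shRNA cells, against 615 to 686 in vector cells, with Slurp1 the largest part in shRNA cells. Only 3 of 22 mesenchymal markers were under that limit, 8 of 19 tested rose and 7 fell, and Vim lay at 13.14, 13.31 and 13.34 in shRNA cells, against 12.92, 13.01 and 13.04 in vector cells. Among all genes on the array 30% lie under that limit. Other keratinocyte markers were above it in both lines, such as Krt10 (means of 7.01 in shRNA cells and 7.43 in vector cells) and Lor (6.29 in shRNA cells and 6.20 in vector cells). Of other cell types, 9 of 15 leukocyte and 7 of 9 endothelial markers were under the limit, Ptprc and Pecam1 included, and of those tested only Lyz2 changed (0.75 ± 0.09). The muscle marker Tnnt2 (2.16 ± 0.09) and the neural marker Tubb3 (1.43 ± 0.11) rose, while 16 of 21 muscle and 7 of 12 neural markers were under the limit. For muscle markers the summed signal was 1147 to 1485 in shRNA cells, against 524 to 587 in vector cells, with Tnnt2 the largest part in shRNA cells. For neural markers it was 713 to 1007 in shRNA cells, against 481 to 593 in vector cells. Of 3 tested melanocyte markers 1 rose and 1 fell, and of 2 adipocyte markers 0 rose and 1 fell. Their part in the results was not tested. In bulk RNA, fewer cells of a type and less RNA per cell cannot be told apart.

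The line difference also depended on the chromosome, a pattern examined after the data were seen. Of 244 tested X-linked genes 17 rose (7.0%) and 160 fell (65.6%), with a median of -0.39. On chromosome 14 it was 23 (7.9%) and 152 (52.4%) of 290, with a median of -0.23, on chromosome 13 it was 37 and 135 of 302, and on chromosome 15 it was 42 and 159 of 364. Chromosome 18 went the other way, with 111 of 213 genes higher (52.1%) and 31 lower (14.6%) and a median of 0.21. With the genes of a chromosome split at the middle in map order, the medians were -0.40 and -0.38 for X, -0.24 and -0.22 for chromosome 14, and 0.28 and 0.17 for chromosome 18. Per array, the median deviation of the X-linked genes from the midpoint of the lines, less that of all other genes, was -0.25, -0.21 and -0.15 in shRNA cells, against 0.20, 0.21 and 0.22 in vector cells. On chromosome 14 it was -0.14, -0.13 and -0.10 in shRNA cells, against 0.12, 0.14 and 0.14 in vector cells. These deviations mirror each other because they are taken from the midpoint. The same quantity separated the lines in irradiated cells at 2 h and 24 h, with shRNA minus vector at -0.39 and -0.42 for X, -0.23 and -0.27 for chromosome 14, and 0.25 and 0.23 for chromosome 18, beside -0.42, -0.26 and 0.21 at 6 h. The cause was not tested.

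**Figure D4:**
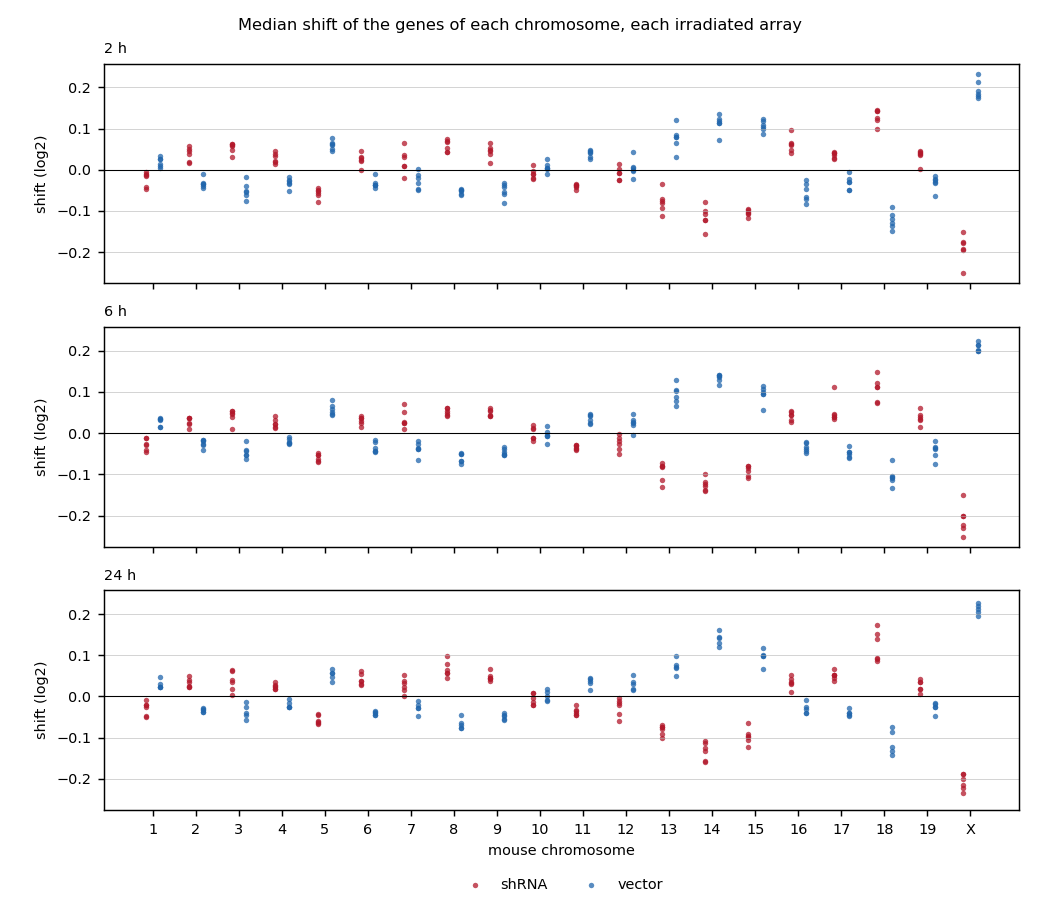
Median deviation (log2) of the tested genes of each mouse chromosome from the midpoint of the lines, less that of all other genes (vertical axis), on every irradiated array at 2, 6 and 24 h; shRNA arrays in red, vector arrays in blue. Genes of X and of chromosomes 13, 14 and 15 are lower and those of chromosome 18 are higher in shRNA arrays at all 3 times.

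Chromosomes 13, 14, 15 and X hold 13.8% of tested genes and 28.2% of those that fell. Of the 12 DNA repair genes that fell, 3 lie on them (Xrcc6 on 15, Parp2 and Apex1 on 14), of the 15 TGF-beta and BMP genes 5, of the 12 matrix genes 5, and of the 6 cholesterol synthesis genes 4. With the median of each chromosome taken off each array, 4170 genes were called, 2181 higher and 1989 lower, 3587 of them shared with the values as deposited. DNA repair then stood at 2 higher and 12 lower as before, TGF-beta and BMP genes at 5 and 14, cholesterol synthesis at 7 and 3, actin cytoskeleton at 9 and 4, and heat shock proteins at 5 and 5. Other annexins stood at 5 and 0, and S100 genes at 4 and 1. All 28 genes named by size kept their direction and their call. Their differences are far larger than any shift taken off (the median of X was -0.39), so this outcome was all but fixed in advance.

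Part of the line difference changed between the times sampled after X-rays. The series has no untreated arrays at 6 h, so change after X-rays cannot be told apart from change with time in culture. The difference at 6 h was tested against that at 2 h and at 24 h in irradiated cells, in a fit of 35 arrays, and both contrasts use the same 6 h arrays. Against 2 h, 228 genes were called (2.63%), 103 with a positive (1.19%) and 125 with a negative (1.44%) change of the difference, and 1297 had an unadjusted p under 0.05. Replicate 3 of vector cells at 2 h stands apart from the other vector arrays of that time at both doses, and without these arrays 393 genes were called, 172 positive and 221 negative, 177 of them shared. Against 24 h, 858 were called (9.89%), 514 positive (5.93%) and 344 negative (3.97%), and 1944 had an unadjusted p under 0.05.

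Ccng2, which encodes the growth-inhibitory cyclin G2, changed sign between 2 h and 6 h. At 2 h it had 5.67, 5.93 and 6.06 in shRNA cells, against 6.79, 6.97 and 7.33 in vector cells, and at 6 h 6.82, 6.93 and 7.01 in shRNA cells, against 6.05, 6.31 and 6.45 in vector cells. The line difference was -1.12 ± 0.07 at 2 h and 0.63 ± 0.07 at 6 h (adjusted p of the change 1.47e-12). Nr4a2, a nuclear receptor of the immediate early class, changed sign the other way, from a difference of 0.60 ± 0.10 at 2 h to one of -0.78 ± 0.10 at 6 h (adjusted p of the change 2.23e-07). The linker histone gene H1f2 had a difference of -0.66 ± 0.14 at 2 h and 0.40 ± 0.14 at 6 h (adjusted p of the change 0.00118). Vegfa, the endothelial growth factor, had 7.46, 7.63 and 7.80 in shRNA cells at 6 h, against 8.70, 8.81 and 9.19 in vector cells. At 2 h it had 9.71, 9.84 and 10.01 in shRNA cells, against 7.83, 10.21 and 10.31 in vector cells, with the low vector values on the arrays that stood apart. Its change between times was -1.66 (adjusted p = 0.0325) with all arrays and -0.87 (adjusted p = 0.000135) without them. Smaller line differences at 6 h than at 2 h were found for the natriuretic peptide gene Nppb (0.92 ± 0.13, against 2.46 ± 0.13), the tubulin gene Tubb3 (1.43 ± 0.12, against 2.78 ± 0.12) and the clock output gene Dbp (1.07 ± 0.18, against 2.38 ± 0.18). Negative differences were smaller in size at 6 h for Rgs4, a regulator of G protein signalling (-1.74 ± 0.09, against -2.58 ± 0.09), and for the secreted protein gene Tafa5 (-1.86 ± 0.15, against -2.69 ± 0.15). The change of Tafa5 (0.83, adjusted p = 0.0286) was 0.60 (adjusted p = 0.0675) without the vector arrays at 2 h that stood apart and lost its call in 12 of 32 alternatives. The immune checkpoint gene Havcr2 had a larger difference at 6 h (2.20 ± 0.14, against 1.31 ± 0.14). Timp3, an inhibitor of MMPs, had a difference of 0.26 ± 0.23 at 6 h, against 1.46 ± 0.23 at 2 h and 1.99 ± 0.24 at 24 h. Its change against 2 h was -1.20 (adjusted p = 0.0377) with all arrays and -0.69 (adjusted p = 0.0314) without the vector arrays that stood apart, and it lost its call in 16 of 33 alternatives.

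Between 6 h and 24 h the largest changes of the line difference were of Rsad2 and Tnnt2. Rsad2, an interferon-induced antiviral gene, had 4.16, 4.38 and 4.77 in shRNA cells at 6 h, against 4.27, 4.83 and 4.91 in vector cells, and at 24 h 3.98, 4.36 and 4.73 in shRNA cells, against 7.53, 7.78 and 8.16 in vector cells. Its change in line difference was 3.09 (adjusted p = 4.66e-12), with only the vector cells at 24 h high. The acute-phase genes Lcn2 and Saa3 were also high in vector cells at 24 h. Lcn2 had 4.67, 4.88 and 5.02 in shRNA cells at 6 h, against 4.86, 4.98 and 5.05 in vector cells, and at 24 h 4.57, 4.87 and 5.01 in shRNA cells, against 6.94, 7.05 and 7.41 in vector cells. Tnnt2, cardiac troponin T, had 9.58, 9.73 and 10.10 in shRNA cells at 6 h, against 7.51, 7.59 and 7.84 in vector cells. At 24 h it had 8.35, 8.57 and 8.66 in shRNA cells, against 3.30, 3.55 and 3.76 in vector cells, so both lines were lower and the difference larger (change -2.81, adjusted p = 1.36e-15). Egr1, an immediate early factor, had 8.32, 8.57 and 8.71 in shRNA cells at 6 h, against 7.96, 8.30 and 8.47 in vector cells, and at 24 h 6.22, 6.41 and 6.52 in shRNA cells, against 8.32, 8.41 and 8.64 in vector cells. Its line difference was 0.26 ± 0.09 at 6 h and -2.06 ± 0.10 at 24 h. Smoc2 had a difference of -5.56 ± 0.09 at 6 h and -3.63 ± 0.09 at 24 h, where vector cells had 7.28, 7.31 and 7.51. Mmp13 had its smallest line difference at 6 h, with -3.58 ± 0.10, against -4.70 ± 0.10 at 2 h and -5.79 ± 0.10 at 24 h. Klf4 had a larger difference at 24 h (1.62 ± 0.15 at 6 h, 3.11 ± 0.15 at 24 h), and so did Islr, a mesenchymal surface protein gene (-2.14 ± 0.17 at 6 h, -4.07 ± 0.18 at 24 h). Ctla2a, which encodes a cysteine protease inhibitor, and the transporter gene Slc6a12 had negative differences at 6 h (-0.37 ± 0.09 and -1.31 ± 0.16), and Ctla2a had a positive one at 24 h (1.34 ± 0.09).

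A few genes, chosen after their values were seen, differed between the lines by more at 6 h than at either other time. Osmr, the receptor of oncostatin M, had 8.48, 8.61 and 8.74 in shRNA cells at 2 h, against 7.60, 7.94 and 7.98 in vector cells. At 6 h it had 8.63, 8.75 and 8.98 in shRNA cells, against 7.22, 7.34 and 7.42 in vector cells. At 24 h it had 8.71, 8.94 and 9.05 in shRNA cells, against 8.91, 9.02 and 9.14 in vector cells, with overlap. The shRNA medians ran from 8.61 to 8.94 over the 3 times, and the vector median was lowest at 6 h. The line difference at 6 h was 1.44 ± 0.07, larger than at 2 h (0.73 ± 0.07, adjusted p of the change 2.67e-05) and at 24 h (-0.11 ± 0.07, adjusted p of the change 1.54e-12). Stat3, the factor that oncostatin M and interleukin-6 activate, had differences of 0.36 ± 0.06 at 2 h, 0.61 ± 0.06 at 6 h and -0.04 ± 0.07 at 24 h. A test of the change of Stat3 is not given here. Related genes went both ways at 6 h. Means were lower in shRNA than in vector cells for Lifr (3.22 and 5.26), Socs3 (8.76 and 8.97) and Il6st (8.38 and 8.45). They were higher for Il6ra (5.45 and 5.30) and Clcf1 (7.13 and 6.99). Adam12, a membrane protease that sheds growth factors, had 6.24, 6.33 and 6.49 in shRNA cells at 6 h, against 7.17, 7.43 and 7.73 in vector cells. Its line difference was -0.11 ± 0.08 at 2 h, -1.11 ± 0.08 at 6 h and 0.31 ± 0.08 at 24 h, and both changes were called (adjusted p = 1.56e-06 and 2.04e-10). Stom, which encodes the membrane protein stomatin, had differences of 0.21 ± 0.07 at 2 h, 0.95 ± 0.07 at 6 h and 0.04 ± 0.07 at 24 h.

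**Figure D5:**
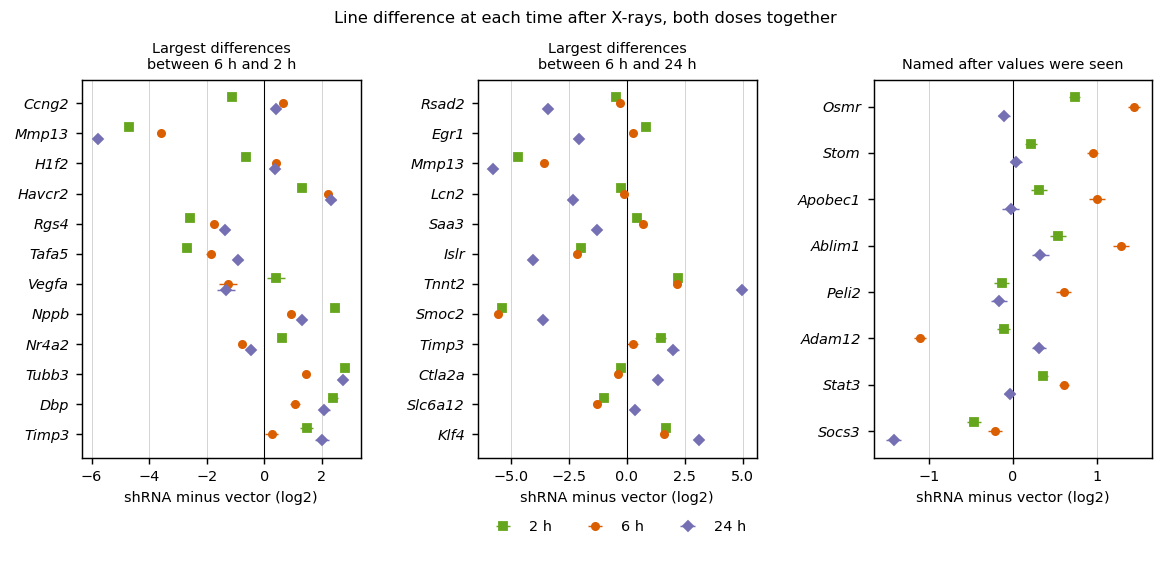
Line difference (shRNA minus vector, log2, horizontal axis) in irradiated cells at 2 h (squares), 6 h (circles) and 24 h (diamonds) with standard errors, for the genes with the largest change against 2 h (left), against 24 h (middle) and 8 genes picked after their values were seen (right). Ccng2, H1f2 and Nr4a2 lie on opposite sides of 0 at 2 h and 6 h, and Osmr and Adam12 lie farther from 0 at 6 h than at either other time.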

How the data were processed

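RNA of JB6 cells was hybridised to Affymetrix mouse arrays with 22690 probe sets. The deposited values are log2 signals that the authors summarised by RMA, per the submitters' processing notes (version not given in the sources used here). They run from 1.84 to 14.03 and were used as deposited. Control probe sets (64) and those with several gene symbols (691) or none (1555) were left out. The brightest probe set over all 47 arrays stood for each of 12393 genes, and the dimmest 30% (mean under 4.35) were left out, which left 8675. Names and positions follow RefSeq (GRCm38.p6). Line and dose were fitted with limma 3.58.1 in R 4.3.3 on the 12 arrays at 6 h, and each dose, their interaction and the contrasts with other times on group means (35 irradiated arrays for the time contrasts, where vector cells at 24 h after 10 cGy have 2 arrays). The method was tested on simulated data.

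Named genes are Anxa2, Cdkn1a, Mdm2, the 14 largest called changes without overlap in each direction, 6 in each direction against each other time, and up to 6 members with the smallest p of each list. Fos, Jun, Fosl1, Fosl2, Junb, S100a10, Mmp9, Mmp10, Il6, Krt5, Vim and further members named with small changes, and genes stated so, fall outside it. Members and lists were chosen with earlier results of these data known. One result on named genes that fell is not reported here. Raw array files were not analysed here. The closing section gives the alternatives.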

Additional observations from a re-analysis of the deposited data

Results flagged for a closer look

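For the genes below, the line difference at 6 h (shRNA minus vector) departed from that at another time by the test of the change itself, and these are the largest changes in each direction. Against 2 h the change in line difference was positive for Ccng2 (1.75), Mmp13 (1.12), H1f2 (1.06), Havcr2 (0.89), Rgs4 (0.84) and Tafa5 (0.83). It was negative for Vegfa (-1.66), Nppb (-1.55), Nr4a2 (-1.39), Tubb3 (-1.35), Dbp (-1.32) and Timp3 (-1.20). The changes of Tafa5, Vegfa and Timp3 against 2 h lost their call in some alternatives. Against 24 h it was positive for Rsad2 (3.09), Egr1 (2.32), Mmp13 (2.21), Lcn2 (2.21), Saa3 (1.98) and Islr (1.93), and negative for Tnnt2 (-2.81), Smoc2 (-1.93), Timp3 (-1.73), Ctla2a (-1.71), Slc6a12 (-1.65) and Klf4 (-1.50). Both sets of values use the same 6 h arrays.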

How the results depend on the processing

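Alternatives were all 47 arrays in the fit, no filter or a 50% filter on low signal, the mean of all probe sets of a gene, arrays centred on the median, array weights, the replicate block, no dose term and leaving out each array in turn. Taking off chromosome medians, and leaving out 3 arrays together, were added after seeing the data. Apart from the contrast with 2 h, every count of called genes stayed within 1.5 times its value. Leaving out each replicate gave 4053 to 4482 calls for the line difference, 2572 to 3310 after 10 cGy, 2673 to 3901 after 100 cGy, 0 for the interaction, 152 to 285 against 2 h and 668 to 899 against 24 h. The contrast with 2 h gave 393 calls without the vector arrays at 2 h that stood apart, and 419 (182 positive, 237 negative) without these and replicate 1 of shRNA cells after 10 cGy. Cdkn1a, not called, turned to -0.069 with the mean of all probe sets and to -0.015 with chromosome medians taken off. Of the changes against 2 h, Vegfa lost its call in 7 of 33 alternatives, Timp3 in 16 of 33 and Tafa5 in 12 of 32, keeping their direction; the cause was not tested. Deviations of same-numbered arrays of the lines at 6 h correlated at -0.09, 0.18 and 0.14 after 10 cGy and 0.19, -0.22 and -0.06 after 100 cGy. Those of differently numbered arrays ran from -0.28 to 0.26. With 3 arrays per group, these values cannot show or exclude that the numbers pair shRNA with vector arrays. The replicate block gave 4324, 3111, 3203 and 0 calls for the line difference, 10 cGy, 100 cGy and the interaction, and 158 and 739 against 2 h and 24 h. RMA values carry no detection calls, so what is absent at the low end cannot be told from what is dim.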
